A study of Danio rerio with 16 samples.

Results

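Zebrafish (Danio rerio) embryos that had been exposed to radiofrequency radiation were followed from 48 to 120 hours post fertilization (hpf). RFR 120 hpf embryos were kept under RFR from 6 to 48 hpf, at 3.5 GHz with a power of about 30 dBm, and collected at 120 hpf, 72 h after the exposure had ended. RFR 48 hpf embryos had the same exposure and were collected at its end. Each of these groups held 4 libraries of RNA from whole embryos, so 8 of the 16 libraries of the series were compared. By the labels the groups differ in stage and, with it, in the time since the exposure ended. Within the RFR libraries stage and time since exposure cannot be told apart. Unexposed control embryos of 120 hpf and of 48 hpf, with 4 libraries each, had no radiation. They served to ask whether the change between the stages differed in exposed embryos. The members were all genes at 0.5 FPKM (fragments mapped to a gene, divided by the length of its transcript and by the depth of the library) or more in at least 4 of the 8 RFR libraries. They were 21751 of the 32513 rows of the table, against 21622 under the same rule in controls and 23026 over the whole series. Neither the number of embryos in a library nor the clutch of a replicate is in the labels. The spread behind each p-value is that between libraries and could be technical.

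Between these stages the zebrafish changes from an embryo that lives on yolk and is about to hatch into a free-swimming larva. The hatching gland digests the egg envelope and is lost, the exocrine pancreas, intestine and liver become able to digest and process food, and the retina becomes functional. Progenitors in the brain leave the cell cycle and form synapses, and the muscle fibres exchange embryonic for later isoforms. In RNA from whole animals, fewer cells of a type and less RNA per cell cannot be told apart.

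The RFR libraries had 39603976 to 47150304 reads after filtering. The share of reads mapped was 66.2 to 66.8% in RFR 120 hpf libraries and 69.4 to 71.2% in RFR 48 hpf libraries (exact two-sided permutation p = 0.0286, the smallest that 4 against 4 libraries allow). The number of genes at 0.5 FPKM or more averaged 21971 ± 178 in RFR 120 hpf and 20062 ± 275 in RFR 48 hpf libraries (SD, n = 4 each; exact permutation p = 0.0286). Replicates 1 to 3 of each group share a raw read number of 47.48 M, whereas the replicates 4 have other numbers. Replicate 4 also had the highest share of Q30 bases of its group in all 4 groups, at 90.83 to 91.08%. Its rRNA share was the highest of its group in RFR 120 hpf (0.24%), RFR 48 hpf (0.3%) and control 48 hpf (0.27%). In control 120 hpf it was 0.23%, below the 3.2% of replicate 1. In a principal component analysis the first component held 86.4% of the variance and separated the stages, and RFR 120 hpf replicate 3 stood apart on the second, which held 3.59%. The correlation of log2 values across genes was 0.968 to 0.981 within RFR 120 hpf, 0.980 to 0.986 within RFR 48 hpf and 0.759 to 0.818 between the stages. Defining markers of muscle, skin, lens, neurons, blood, heart, cartilage and neutrophils were above 0.5 FPKM in every RFR library.

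The developmental change was broad. At 120 hpf, 7769 genes (35.7% of those tested) were higher and 6457 (29.7%) were lower than at 48 hpf in RFR embryos, with limma on log2(FPKM + 0.5) at a Benjamini-Hochberg adjusted p under 0.05. Together 14226 genes (65.4%) passed, so most genes of any list could be called. Quantile normalization, which forces all libraries to the same distribution, gave 6030 higher and 8442 lower genes, so that 41.7% of the called genes were higher, against 54.6% without it. The median log2 change over all genes was 0.07 without that step and -0.14 with it. At least 2-fold, 3759 genes were higher (17.3%) and 1943 lower (8.93%) without the step, and 2780 were higher and 2813 lower with it. In replicates 1 to 3 alone, 7302 genes were higher and 5702 lower, and a fit with a batch term for replicate 4 gave 7792 higher and 6476 lower genes. Changes of at least 16-fold were one-sided, with 318 genes higher (1.46%) and 23 lower (0.106%). Among 1353 noncoding transcripts tested, 354 were higher and 205 lower.

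A set of genes was near 0 at one stage only. At least 5 FPKM in all 4 RFR 120 hpf libraries and under 0.5 FPKM in all 4 RFR 48 hpf libraries was found for 229 genes, of which 223 have a symbol. The reverse was found for 8 genes. These were the embryonic globin hbbe3, MGC174155, si:dkey-26g8.4, si:dkey-26g8.5, si:dkey-269i1.3, wu:fa26c03, zgc:174855 and 1 noncoding transcript without a symbol. The 6 of them other than hbbe3 that have a symbol are all annotated in the deposited table with the orthology term for cathepsin L, a lysosomal cysteine protease.

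The members were described through 36 lists of genes for organs and processes, shown in the plot of list members. Counts in a list are read against the 35.7% of all genes that were higher and the 29.7% that were lower.

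**Figure D1:**
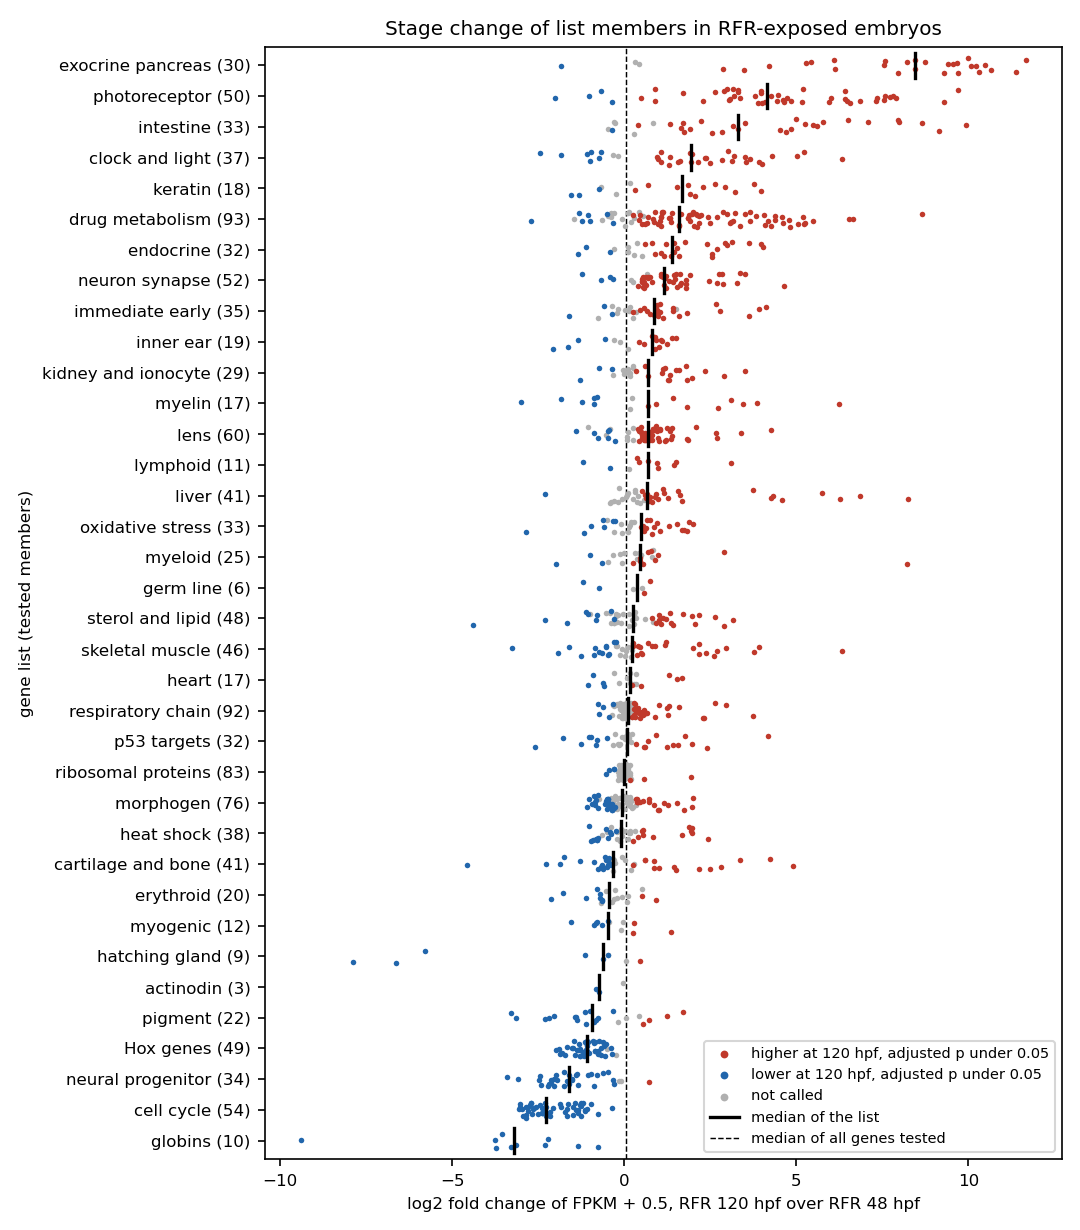
Each point is 1 tested member of a gene list, placed by its log2 fold change of FPKM + 0.5 in RFR-exposed embryos, 120 hpf over 48 hpf, with red for higher and blue for lower at an adjusted p under 0.05. Black bars are list medians, which run from 8.45 for the exocrine pancreas to -3.21 for the globins, and the dashed line is the median over all genes tested, 0.07.

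The exocrine pancreas held the largest rises. Of its 30 tested genes, 27 were higher, 1 was lower and 2 did not pass, with a median log2 change of 8.45. The trypsin-like protease gene prss59.2 had 2344, 3322, 3702 and 3813 FPKM in RFR 120 hpf libraries, against 0.23, 1.12, 0.71 and 0.19 FPKM in RFR 48 hpf libraries. The groups lay more than 3 orders of magnitude apart on the FPKM scale, and replicate 1 was the lowest of the RFR 120 hpf libraries. Its log2 change was 11.67 ± 0.27 (SE; adjusted p = 4.81e-10). Chymotrypsinogen ctrb1 rose by 11.39, the chymotrypsin-like ctrl by 10.65, the elastase zgc:92041 (current symbol cela1.6) by 10.49 and trypsin (try, current symbol prss1) by 10.06 on the log2 scale, and prss59.1 by more than 10. The elastases ela2l and ela3l rose by 10.23 and 9.97, and the carboxypeptidase cpa5 by 8.21. Replicate 1 was the lowest of the RFR 120 hpf libraries for each of these 9 genes. The single gene that fell was ptf1a, the transcription factor that specifies acinar cells and also acts in the hindbrain and retina. It had 2.53, 1.91, 3.69 and 3.12 FPKM in RFR 120 hpf libraries, against 15.6, 11.8, 8.40 and 10.1 FPKM in RFR 48 hpf libraries, and fell by 1.85 ± 0.21 (adjusted p = 2.79e-05).

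The list as a whole took 3.87% of all FPKM in RFR 120 hpf libraries (2.54 to 4.69% by library) and 0.00532% in RFR 48 hpf libraries. The proteases prss59.1 and prss59.2 are close copies, as are several elastases, and the counting of reads that fit more than 1 copy is not stated in the sources used.

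**Figure D2:**
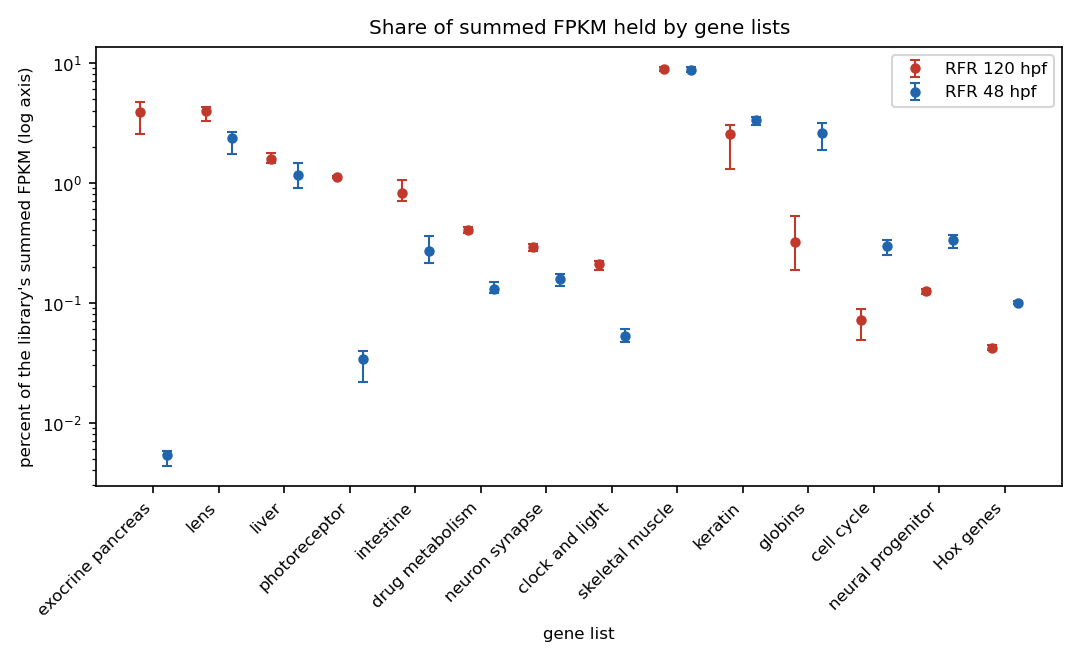
Share of a library's summed FPKM held by 14 gene lists, on a log axis, with points for the mean of 4 libraries and bars from the lowest to the highest library. The exocrine pancreas list rises to 3.87% at RFR 120 hpf, against 0.00532% at RFR 48 hpf, the globin list falls to 0.320%, against 2.59%, and the skeletal muscle list is at 8.83%, against 8.74%.

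Genes of the intestine rose as well. Of 33 tested genes of the gut epithelium, 27 were higher and 1 lower, with a median log2 change of 3.32. The ileal bile acid binding protein gene fabp6 had 376, 396, 367 and 410 FPKM in RFR 120 hpf libraries, against 0.39, 0.13, 0.26 and 0.00 FPKM in RFR 48 hpf libraries. These values were tight within RFR 120 hpf, and the log2 change was 9.16 ± 0.16 (adjusted p = 1.24e-10). The cytochrome cyp3a65, which metabolizes steroids and drugs in gut and liver, rose by 8.65 ± 0.10, and the chitinase chia.2, which digests chitin, by 9.93 ± 0.23. The astacin protease c6ast4, which is counted in the pancreas list and not in this one, averaged 715 ± 286 FPKM in RFR 120 hpf and 0.37 ± 0.36 FPKM in RFR 48 hpf libraries (SD, n = 4 each). The gene that fell was alpi.1, an intestinal alkaline phosphatase, at 4.70 to 6.01 FPKM in RFR 120 hpf and 6.11 to 7.75 FPKM in RFR 48 hpf libraries (log2 change -0.36, adjusted p = 0.0159). Its call is lost in replicates 1 to 3 alone.

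The liver was more divided. Of 41 tested genes for secreted and plasma proteins, 24 were higher, 1 was lower and 16 did not pass, with a median log2 change of 0.66. The liver fatty acid binding protein gene fabp10a had 685, 788, 649 and 1052 FPKM in RFR 120 hpf libraries, against 1.34, 2.29, 2.18 and 2.58 FPKM in RFR 48 hpf libraries. Its log2 change was 8.26 ± 0.19 (adjusted p = 4.07e-10). Transthyretin, ttr, a carrier of thyroid hormone, had 38.8, 63.8, 66.3 and 62.7 FPKM in RFR 120 hpf libraries and was listed at 0 in every RFR 48 hpf library (adjusted p = 5.49e-10). The vitamin D binding protein gene gc rose by 6.26 ± 0.35. Apolipoprotein B, apoba, which carries lipid out of the yolk in early embryos, went the other way. It had 9.21, 4.68, 10.25 and 10.26 FPKM in RFR 120 hpf libraries, against 34.7, 29.0, 55.3 and 60.7 FPKM in RFR 48 hpf libraries (log2 change -2.31 ± 0.29, adjusted p = 5.31e-05).

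Hatching gland enzymes fell to near 0. Of 9 tested genes of the gland, 6 were lower, 1 was higher and 2 did not pass. The hatching enzyme gene he1a had 0.00, 0.40, 0.00 and 12.5 FPKM in RFR 120 hpf libraries, against 370, 252, 230 and 430 FPKM in RFR 48 hpf libraries. Its near copy he1b had 0.00, 0.38, 0.00 and 8.40 FPKM in RFR 120 hpf libraries, against 170, 70.0, 84.7 and 191 FPKM in RFR 48 hpf libraries. Both groups stayed apart, and RFR 120 hpf replicate 4 was the one library in which both enzymes remained above 1 FPKM. The log2 changes were -7.89 ± 0.89 for he1a (adjusted p = 2.76e-05) and -6.64 ± 0.82 for he1b (adjusted p = 5.19e-05). The higher gene was cd63, which codes for a membrane protein of many cell types besides the gland, with a log2 change of 0.47. Its levels were 119 to 151 FPKM in RFR 120 hpf and 88.0 to 101 FPKM in RFR 48 hpf libraries.

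Most genes annotated with the cathepsin L term were lower too. They were grouped after their values were seen. Of 18 genes with the term in the deposited table, all tested, 14 were lower, each by at least 2-fold, 2 were higher and 2 did not pass, with a median log2 change of -5.24. The rises were of ctsl.1 by 6.90 and cts12 by 1.82. Of the 10 largest falls among genes with a mean of 50 FPKM or more, 6 carry the cathepsin L term, and they include si:dkey-26g8.4 at -8.17, MGC174155 at -8.11, wu:fa26c03 at -7.77, LOC100536033 at -7.21, zgc:174855 at -7.06 and si:dkey-239j18.3 at -6.05 on the log2 scale. MGC174155 had 0.00, 0.15, 0.00 and 0.00 FPKM in RFR 120 hpf libraries, against 218, 59.9, 103 and 345 FPKM in RFR 48 hpf libraries. The RFR 48 hpf libraries varied widely, and replicates 1 and 4 were the highest for this gene, as they were for he1a and he1b. These 6 genes share the annotation, and reads could be split between them. LOC568656, annotated as a type-4 ice-structuring protein with an apolipoprotein orthology term, fell by 6.38 ± 0.30.

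Globins fell as a group. All 10 tested globin genes were lower, with a median log2 change of -3.21. The list holds 15 globin genes, and 5 of them did not pass the filter and were not tested. Without the filter 13 of the 15 were lower and 0 were higher, so no globin was seen to replace those that fell. The beta globin hbbe3 had 0.00, 0.00, 0.48 and 0.00 FPKM in RFR 120 hpf libraries, against 814, 388, 338 and 227 FPKM in RFR 48 hpf libraries, and was the largest fall at -9.38 ± 0.36 (adjusted p = 1.31e-08). The more abundant hbbe1.2 had 106, 138, 105 and 347 FPKM in RFR 120 hpf libraries, against 2182, 2414, 2240 and 1513 FPKM in RFR 48 hpf libraries (log2 change -3.75 ± 0.34, adjusted p = 6.19e-06). Replicate 4 was the highest RFR 120 hpf library and the lowest RFR 48 hpf library for hbbe1.2. When 1 library was left out, 8 to 10 of the 10 genes were called. Some of the globins are near-identical copies of each other, and the counts of such copies could be shared.

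Other genes of red cells changed less. Of 20 tested genes for haem synthesis, membrane skeleton and erythroid factors, 8 were lower, 2 were higher and 10 did not pass, with a median of -0.45. The haem synthesis enzyme alas2 had 16.2, 4.86, 9.17 and 16.4 FPKM in RFR 120 hpf libraries, against 48.7, 68.8, 48.1 and 32.7 FPKM in RFR 48 hpf libraries (log2 change -2.14, adjusted p = 0.0004). The anion exchanger slc4a1a fell by 1.78 ± 0.41. The ammonium transporter rhag rose, with 70.6 to 84.1 FPKM in RFR 120 hpf and 31.1 to 46.1 FPKM in RFR 48 hpf libraries (log2 change 0.91).

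**Figure D3:**
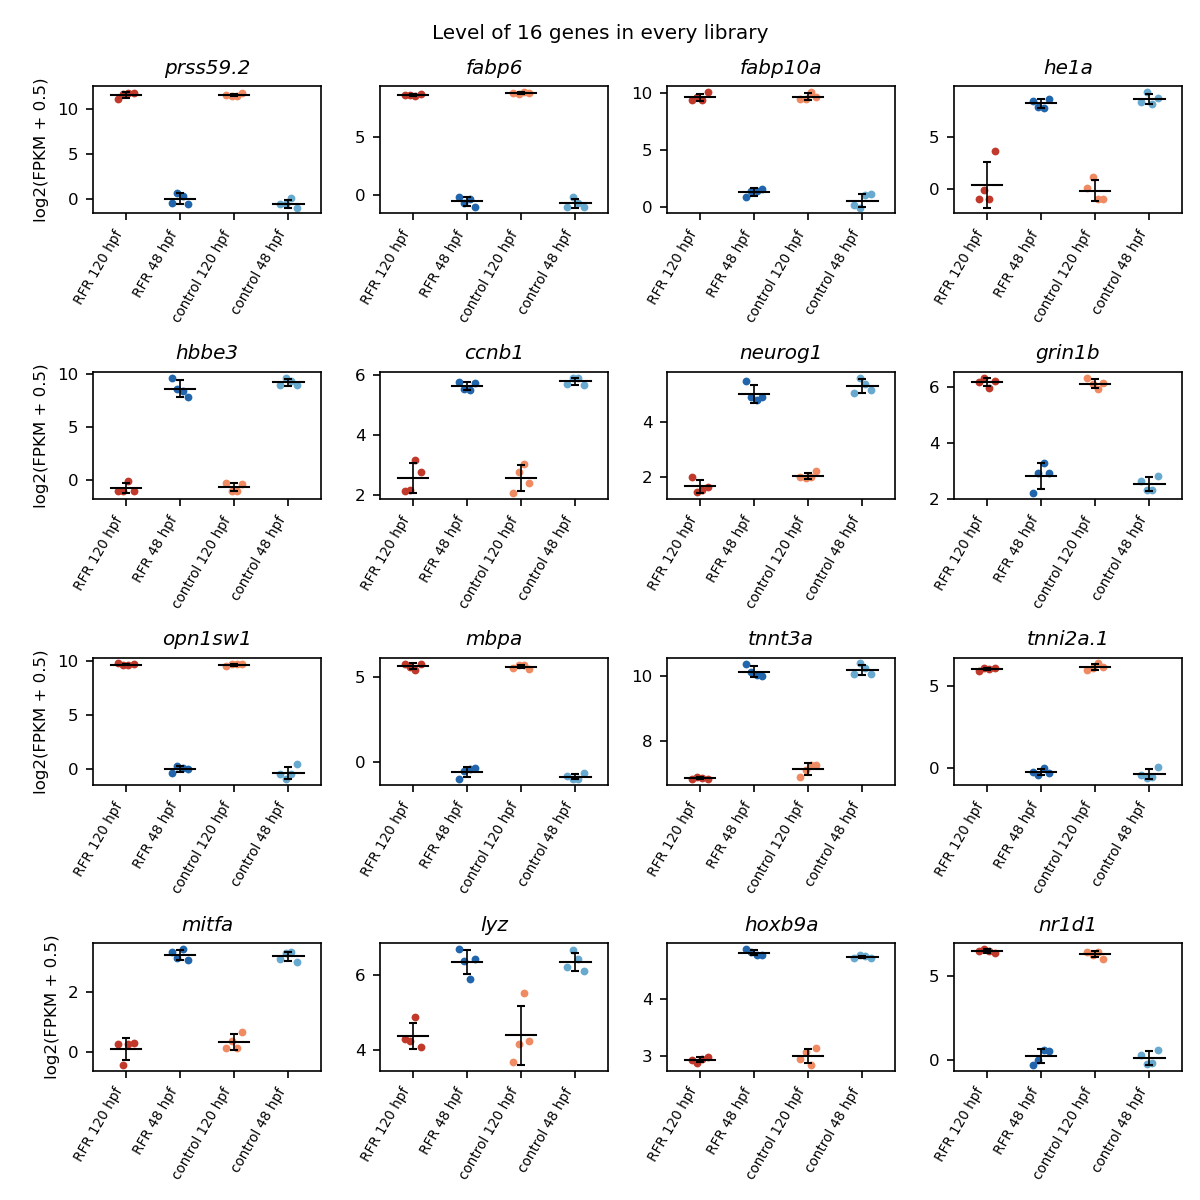
log2(FPKM + 0.5) of 16 genes in each library of the 4 groups, with points for libraries, bars for the mean and whiskers for the SD (n = 4 each). In every panel the 4 RFR 120 hpf libraries lie apart from the 4 RFR 48 hpf libraries, and the control libraries of the same stage lie close to them.

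Proliferation genes were lower. All 54 tested genes of DNA replication and mitosis fell, 51 of them by at least 2-fold, with a median log2 change of -2.26 and a range of -3.06 to -0.34. Cyclin B1, ccnb1, which drives entry into mitosis, had 3.94, 4.03, 8.58 and 6.31 FPKM in RFR 120 hpf libraries, against 53.9, 45.9, 44.4 and 52.5 FPKM in RFR 48 hpf libraries (log2 change -3.06 ± 0.21, adjusted p = 8.76e-07). RFR 120 hpf replicates 3 and 4 were above replicates 1 and 2 for ccnb1. The anaphase activator cdc20 had 3.32, 1.69, 4.23 and 2.96 FPKM in RFR 120 hpf libraries, against 32.5, 27.0, 22.0 and 30.3 FPKM in RFR 48 hpf libraries (log2 change -3.04 ± 0.22).

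Neural progenitor genes fell in parallel. Of 34 tested, 31 were lower and 1 was higher, with a median of -1.60. The proneural factor neurog1 had 3.53, 2.22, 2.34 and 2.63 FPKM in RFR 120 hpf libraries, against 45.6, 29.8, 27.8 and 29.8 FPKM in RFR 48 hpf libraries. It fell by 3.40 ± 0.18 (adjusted p = 1.13e-07), with the groups far apart and RFR 48 hpf replicate 1 the highest. The Notch ligand dlb fell by 3.09 ± 0.17. The gene that rose was vim, the intermediate filament vimentin, which glia and many mesenchymal cells also use, at 99.8 to 144 FPKM in RFR 120 hpf and 56.8 to 96.0 FPKM in RFR 48 hpf libraries (log2 change 0.72).

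Hox genes, which set position along the body axis, followed the same direction. Of 49 tested, 47 were lower and 0 were higher, with 2 not passing. The median was -1.07 and the range -1.99 to -0.24, so the falls were small beside those of the cell cycle. The posterior gene hoxb9a had 7.14, 6.84, 7.23 and 7.37 FPKM in RFR 120 hpf libraries, against 28.9, 28.0, 27.0 and 26.9 FPKM in RFR 48 hpf libraries. Replicates were nearly level within each stage, and the log2 change was -1.88 ± 0.07 (adjusted p = 1.28e-08). Of 76 tested ligand family and feedback genes of the Wnt, Fgf, Bmp, Hedgehog and Nodal pathways, 19 were higher and 24 lower. The median was -0.06. Under quantile normalization 14 were higher and 38 lower, with a median of -0.39. The Fgf family genes fgf12a and fgf6a rose by 1.29 and 1.16, while wnt4b fell by 1.08 and bmp4 by 1.02.

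Genes of mature neurons mostly rose. Of 52 tested genes for transmitter synthesis, release and reception, 45 were higher and 4 lower, with a median of 1.15. The NMDA receptor subunit grin1b had 73.0, 80.6, 62.4 and 73.3 FPKM in RFR 120 hpf libraries, against 4.05, 6.98, 9.28 and 7.03 FPKM in RFR 48 hpf libraries. Its log2 change was 3.36 ± 0.20 (adjusted p = 3.03e-07). The complexin cplx4a, known from ribbon synapses of the mammalian retina, rose by 4.65 ± 0.19, and the GABA receptor subunit gabra6a, known from cerebellar granule cells in mammals, by 3.52 ± 0.14. The early neuronal RNA-binding protein elavl3 fell, with 89.1, 78.1, 71.7 and 80.9 FPKM in RFR 120 hpf libraries, against 213, 190, 182 and 173 FPKM in RFR 48 hpf libraries (log2 change -1.24 ± 0.09). The complexin cplx2 fell by 0.66.

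Myelin genes moved in both directions. Of 17 tested, 9 were higher and 6 lower, with a median of 0.69. Myelin basic protein, mbpa, had 55.3, 48.9, 43.2 and 55.2 FPKM in RFR 120 hpf libraries, against 0.00, 0.19, 0.24 and 0.28 FPKM in RFR 48 hpf libraries (log2 change 6.25 ± 0.15, adjusted p = 6.16e-10). The proteolipid gene plp1b rose by 3.87 ± 0.10, to 18.3 to 20.5 FPKM in RFR 120 hpf libraries, against 0.73 to 1.0 FPKM in RFR 48 hpf libraries. Its paralogue plp1a had 2.43, 2.18, 1.71 and 1.89 FPKM in RFR 120 hpf libraries, against 34.2, 19.2, 14.8 and 15.3 FPKM in RFR 48 hpf libraries, and fell by 2.99 ± 0.24 (adjusted p = 2.23e-06). The adhesion protein gene mag rose by 3.45, and olig2, the factor that specifies oligodendrocytes and motor neurons, fell by 1.83.

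Photoreceptor genes rose by the largest steps after the pancreas list. Of 50 tested genes of opsins, phototransduction and the visual cycle, 46 were higher and 4 lower, with a median of 4.16. The ultraviolet opsin opn1sw1 had 901, 805, 786 and 844 FPKM in RFR 120 hpf libraries, against 0.28, 0.70, 0.58 and 0.51 FPKM in RFR 48 hpf libraries (log2 change 9.70 ± 0.13, adjusted p = 2.65e-11). The blue opsin opn1sw2 rose by 7.91 ± 0.11, and the cone phosphodiesterase inhibitor subunit pde6h by 9.29 ± 0.18. Values within RFR 120 hpf differed little between libraries for these genes, and the list took 1.09 to 1.14% of all FPKM there. The 4 genes that fell include lrata, a retinol acyltransferase, at -2.0 ± 0.18, and nr2e3, a factor of photoreceptor fate, at -1.03 ± 0.18. For nr2e3 the levels were 4.80 to 6.96 FPKM in RFR 120 hpf and 7.99 to 14.1 FPKM in RFR 48 hpf libraries.

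Lens genes rose more modestly from a high base. Of 60 tested crystallin and fibre genes, 45 were higher and 7 lower, with a median of 0.68, and the list took 3.95% of FPKM in RFR 120 hpf and 2.37% in RFR 48 hpf libraries. The gamma crystallin crygm2d11 had 602, 556, 465 and 601 FPKM in RFR 120 hpf libraries, against 9.07, 40.8, 29.2 and 58.8 FPKM in RFR 48 hpf libraries. RFR 48 hpf replicate 1 was the lowest of its group, and the log2 change was 4.26 ± 0.45 (adjusted p = 1.76e-05). The crystallin crygn1 rose by 3.40 and crygm2f by 2.67. The lens connexin gja8b fell by 0.87 and the fibre membrane protein lim2.3 by 0.46. The crystallins of the crygm2d family are near-identical copies, and reads could be split between them.

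Skeletal muscle held its share of RNA while single members moved in opposite directions. Of 46 tested genes, 22 were higher and 14 lower, with a median of 0.23, and the list held 8.83% of FPKM in RFR 120 hpf and 8.74% in RFR 48 hpf libraries. The troponin T gene tnnt3a had 113, 118, 115 and 113 FPKM in RFR 120 hpf libraries, against 1323, 1106, 1033 and 1014 FPKM in RFR 48 hpf libraries (log2 change -3.27 ± 0.09, adjusted p = 1.48e-09). The troponin I gene tnni2a.1 had 60.3, 68.4, 66.2 and 69.2 FPKM in RFR 120 hpf libraries, against 0.31, 0.23, 0.48 and 0.28 FPKM in RFR 48 hpf libraries (log2 change 6.34 ± 0.11, adjusted p = 1.24e-10). The groups did not overlap for either gene. A fast myosin heavy chain, myhb, rose by 3.90 ± 0.25 and a troponin C gene, si:rp71-17i16.4 (current symbol tnnc2.1), by 3.77 ± 0.15, whereas the skeletal actin acta1b fell by 1.93 ± 0.09.

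Among 12 tested myogenic factors, 3 were higher and 6 lower. The late factor myf6 rose by 1.35, and the early factors myod1 and six1b fell by 0.87 and 0.79. The other rises, of mef2d by 0.29 and mef2cb by 0.25, were in overlapping groups, and both lose the call under median-ratio scaling. Of 17 tested heart genes, 5 were higher and 4 lower. Atrial and ventricular muscle was represented by myl4, which rose by 1.69, and by the ventricular myosin vmhc, at 21.4 to 28.1 FPKM in RFR 120 hpf and 7.78 to 12.9 FPKM in RFR 48 hpf libraries, which rose by 1.3. The cardiac factor hand2 fell by 1.05 and the natriuretic peptide nppa by 0.59.

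Cartilage and bone genes were mixed, with 14 of 41 tested higher and 18 lower and a median of -0.33. Matrilin 1, matn1, a cartilage matrix protein, had 111, 86.6, 157 and 109 FPKM in RFR 120 hpf libraries, against 0.24, 4.38, 8.70 and 5.85 FPKM in RFR 48 hpf libraries. RFR 48 hpf replicate 1 was again the lowest, and the log2 change was 4.90 ± 0.65 (adjusted p = 8.32e-05). Osteopontin, spp1, a bone matrix protein, rose by 4.23 ± 0.17 and the cartilage matrix protein ucmaa by 3.35 ± 0.23. The largest fall was of acp5a, the tartrate-resistant phosphatase known from osteoclasts, with 0.53, 0.58, 1.87 and 0.78 FPKM in RFR 120 hpf libraries, against 46.9, 22.9, 33.9 and 27.8 FPKM in RFR 48 hpf libraries (log2 change -4.57 ± 0.29, adjusted p = 4.27e-07). The hyaluronan link protein hapln1a fell by 2.26. Of the 3 tested actinodins, structural proteins of the fin fold, and1 fell by 0.81 and and3 by 0.74.

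Keratins changed in both directions. Of 18 tested, 12 were higher and 3 lower, with a median of 1.68. The keratins krt93, krt1-19d and krt92 rose by 3.98, 3.78 and 3.22 on the log2 scale. The abundant skin keratin krt4 had 4452, 3837, 1859 and 4450 FPKM in RFR 120 hpf libraries, against 9557, 8608, 8223 and 7704 FPKM in RFR 48 hpf libraries (log2 change -1.3 ± 0.25, adjusted p = 0.0011). The keratin cyt1l had 2001, 1739, 357 and 2028 FPKM in RFR 120 hpf libraries, against 4040, 3842, 3757 and 3156 FPKM in RFR 48 hpf libraries (log2 change -1.55 ± 0.48, adjusted p = 0.0163). The groups did not overlap, but RFR 120 hpf replicate 3 was far below the other libraries of its group for both genes.

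Pigment cell genes were mostly lower, with 15 of 22 tested lower and 4 higher and a median of -0.93. The pteridine enzyme gch2 of xanthophores had 16.1, 7.54, 15.6 and 18.6 FPKM in RFR 120 hpf libraries, against 162, 128, 136 and 133 FPKM in RFR 48 hpf libraries (log2 change -3.30 ± 0.23, adjusted p = 1.03e-06). The melanophore master factor mitfa had 0.69, 0.24, 0.70 and 0.73 FPKM in RFR 120 hpf libraries, against 9.61, 8.29, 10.29 and 7.79 FPKM in RFR 48 hpf libraries (log2 change -3.14 ± 0.18, adjusted p = 2.29e-07). Xanthine dehydrogenase, xdh, an enzyme of purine and pteridine metabolism, rose by 1.71, and gpnmb, a melanosome and macrophage protein, by 1.23.

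Myeloid genes changed in both directions. Of 25 tested, 10 were higher, 3 were lower and 12 did not pass. The lysozyme lyz, a neutrophil and macrophage enzyme, had 19.2, 18.4, 29.0 and 16.4 FPKM in RFR 120 hpf libraries, against 102, 82.6, 58.9 and 84.8 FPKM in RFR 48 hpf libraries (log2 change -1.97 ± 0.20, adjusted p = 1.18e-05). The neutrophil peroxidase mpx fell by 1.0. The macrophage perforin mpeg1.2 had 6.25, 7.52, 27.1 and 6.86 FPKM in RFR 120 hpf libraries, against 0.70, 0.82, 0.89 and 1.12 FPKM in RFR 48 hpf libraries, and rose by 2.90 ± 0.39 (adjusted p = 9.39e-05). RFR 120 hpf replicate 3 was more than 3 times as high as the others of its group. Without it, 6 myeloid genes were higher and 5 lower, without RFR 48 hpf replicate 2 the numbers were 6 and 3, and under quantile normalization 4 and 5. The cpa5 gene of this list is also a pancreatic protease and was described with the pancreas. Of 11 tested lymphoid genes, 8 were higher and 2 lower, but under quantile normalization 4 were higher and in replicates 1 to 3 alone 5. The thymus chemokine ccl25a rose by 3.12 ± 0.17, and tox and gata3, factors that also act in neurons, fell by 1.2 and 0.42. The 8 include cd3eap, which codes for an RNA polymerase I subunit (current symbol polr1g) and is no lymphocyte gene, and its call is lost under median-ratio scaling.

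Genes of hormones and hormone response rose in the main. Of 32 tested, 23 were higher and 3 lower, with a median of 1.4. Growth hormone, gh1, had 13.2, 15.0, 18.0 and 13.5 FPKM in RFR 120 hpf libraries, against 0.11, 0.58, 0.49 and 0.70 FPKM in RFR 48 hpf libraries (log2 change 4.03 ± 0.21, adjusted p = 1.02e-07). The deiodinase dio1, which processes thyroid hormone, rose by 3.96 ± 0.19. The thyroid and kidney factor pax8 fell by 1.36 and the thyroid hormone receptor thrb by 0.43. The groups overlapped for thrb, and its call is lost in replicates 1 to 3 alone.

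The glucocorticoid-induced transcription factor klf9 had 42.8, 56.6, 30.7 and 7.49 FPKM in RFR 120 hpf libraries, against 0.56, 1.26, 4.31 and 2.37 FPKM in RFR 48 hpf libraries. It rose by 3.64 ± 0.61 (adjusted p = 0.00045), with RFR 120 hpf replicate 4 nearest to the RFR 48 hpf libraries. In the list of immediate-early and glucocorticoid-responsive genes, 22 of 35 tested were higher and 3 lower, with a median of 0.87. The gluconeogenic enzyme pck1 rose by 4.13 ± 0.26, to 120 to 277 FPKM in RFR 120 hpf libraries, against 7.89 to 16.1 FPKM in RFR 48 hpf libraries. The activity-dependent neuronal factor npas4a had 24.0, 22.2, 13.8 and 19.6 FPKM in RFR 120 hpf libraries, against 1.02, 1.11, 1.42 and 0.99 FPKM in RFR 48 hpf libraries, and rose by 3.62 ± 0.17.

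Most clock and light-regulated genes rose. Of 37 tested, 28 were higher and 7 lower, with a median of 1.93. The repressor nr1d1 had 92.5, 99.7, 91.3 and 83.8 FPKM in RFR 120 hpf libraries, against 0.31, 0.50, 0.98 and 0.93 FPKM in RFR 48 hpf libraries (log2 change 6.33 ± 0.18, adjusted p = 1.86e-09). The light-induced period gene per2 rose by 5.23 ± 0.15 and the cryptochrome-like cry5, a DNA photolyase relative, by 5.01 ± 0.17. The repressor nfil3-5 fell by 2.43 ± 0.14 and the clock activator arntl1a by 1.08 ± 0.14. The nominal stages are 72 h apart, which is a whole number of days, but the labels give no clock time of collection. The part of the time of day was not tested.

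Enzymes of drug and steroid metabolism rose, with 71 of 93 tested higher and 7 lower and a median of 1.6. The cytochrome cyp2ad2 had 47.3, 53.1, 67.4 and 76.0 FPKM in RFR 120 hpf libraries, against 0.10, 0.07, 0.10 and 0.12 FPKM in RFR 48 hpf libraries (log2 change 6.66 ± 0.15, adjusted p = 3.75e-10). The related cyp2n13 rose by 6.53 ± 0.16. In contrast, cyp2aa3 fell by 2.70 ± 0.43 and the sulfotransferase sult1st1 by 1.0 ± 0.13.

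Genes of sterol synthesis, fatty acid synthesis and apolipoproteins were mixed, with 17 of 48 tested higher and 9 lower. The share called was 54.2%, below the 65.4% of all genes. The enzyme msmo1, which removes methyl groups from sterol precursors, had 20.1, 19.1, 87.5 and 19.4 FPKM in RFR 120 hpf libraries, against 2.54, 2.26, 2.77 and 3.55 FPKM in RFR 48 hpf libraries (log2 change 3.16 ± 0.43, adjusted p = 0.000104). The rate-limiting enzyme of sterol synthesis, hmgcra, had 5.90, 7.90, 29.0 and 5.64 FPKM in RFR 120 hpf libraries, against 0.57, 0.99, 1.38 and 1.72 FPKM in RFR 48 hpf libraries. It rose by 2.63 ± 0.46 (adjusted p = 0.000561). For both genes RFR 120 hpf replicate 3 lay far above the other 3 libraries of its group, which were themselves all above the RFR 48 hpf libraries. The low-density lipoprotein receptor ldlra, at 9.02 to 11.9 FPKM in RFR 120 hpf and 0.59 to 1.27 FPKM in RFR 48 hpf libraries, rose by 2.89 ± 0.17. The apolipoprotein apobb.2 fell by 4.38 ± 0.29. The list's median was 0.25, and it was -0.03 without RFR 120 hpf replicate 3, where 14 genes were lower, and -0.04 under quantile normalization.

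**Figure D4:**
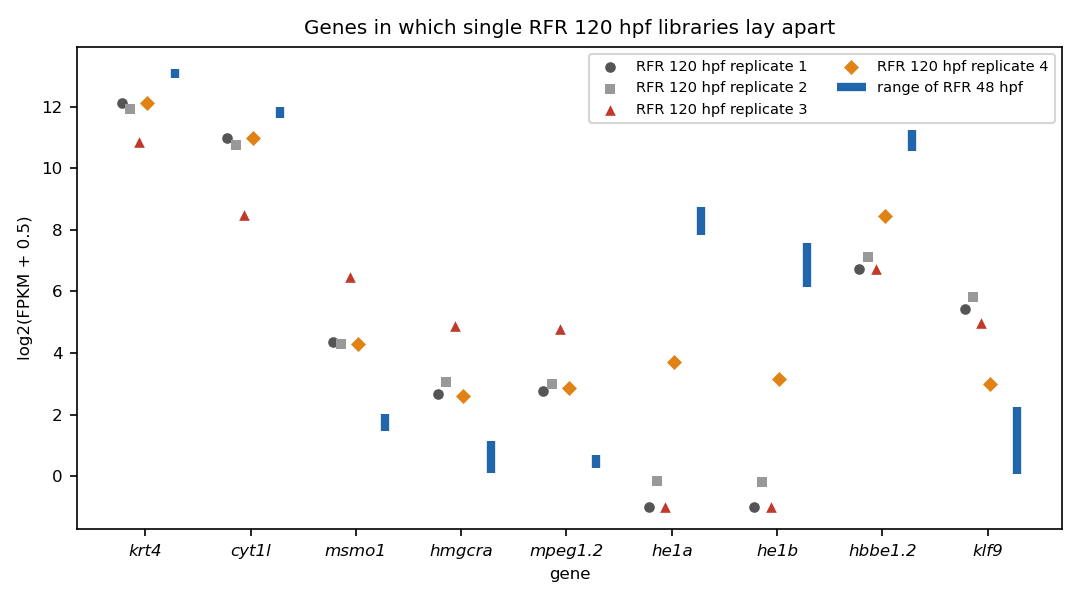
log2(FPKM + 0.5) of 9 genes in the 4 RFR 120 hpf libraries (symbols) beside the range of the 4 RFR 48 hpf libraries (blue bars). Replicate 3 is the lowest for krt4 and cyt1l and the highest for msmo1, hmgcra and mpeg1.2, and replicate 4 is the highest for he1a, he1b and hbbe1.2 and the lowest for klf9.

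Ion transport genes of the pronephros and skin ionocytes rose, with 17 of 29 tested higher and 3 lower and a median of 0.70. The ammonia channel rhcgb had 5.56, 5.86, 9.16 and 4.57 FPKM in RFR 120 hpf libraries, against 0.03, 0.11, 0.14 and 0.03 FPKM in RFR 48 hpf libraries (log2 change 3.52 ± 0.19, adjusted p = 1.85e-07). The sodium pump subunit atp1a1a.4 rose by 2.89 ± 0.11 and the salt cotransporter slc12a10.2 by 2.33 ± 0.32, while the kidney and brain factor pax2a fell by 1.3 ± 0.08. Of 19 tested inner ear genes, 12 were higher and 4 lower, with a median of 0.81. Under quantile normalization 8 were higher and 6 lower, with a median of 0.30, and 7 of 13 were higher with a filter of 1 FPKM. The otolith matrix protein otomp rose by 1.07 and the calcium-binding s100t by 1.39, whereas the parvalbumin pvalb9 fell by 2.06 and the hair cell factor atoh1a by 1.34. The levels of pvalb9 were 33.4 to 51.5 FPKM in RFR 120 hpf and 149 to 190 FPKM in RFR 48 hpf libraries.

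Ribosomal proteins were the list with the lowest share of called genes, 8.43%. Of 83 tested genes named as cytosolic ribosomal proteins, 3 were higher, 4 lower and 76 did not pass, with a median of -0.02 whose sign flips to 0.01 under quantile normalization. They took 17.7% of FPKM in RFR 120 hpf and 18.2% in RFR 48 hpf libraries. The genes that rose include rps8b, by 1.93, and rplp2, by 0.58. The falls include rpl7l1 by 0.53, with overlapping groups, and rps19bp1 by 0.43, which are ribosome-related genes taken in by the name pattern and no ribosomal proteins. Without RFR 48 hpf replicate 1, 7 genes of the list were higher, and under quantile normalization 6 were higher and 7 lower. A rise of 0.18 for rpl7 loses the call under median-ratio scaling. Of 92 nuclear-encoded subunits of the respiratory chain and ATP synthase, 30 were higher and 5 lower, with a median of 0.12, and the lower genes numbered 2 in replicates 1 to 3 alone and 11 without RFR 120 hpf replicate 3. Among these the muscle isoform subunits cox6a2 and cox7a1 rose by 3.75 and 2.96, and cox5b1 by 2.64, while cox7a2b and atp5g1 fell by 0.76 and 0.74.

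Stress genes did not move as a block. Of 38 heat shock proteins and cochaperones tested, 12 were higher, 12 lower and 14 did not pass, with a median of -0.08. The small heat shock protein hspb6 rose by 2.43, the constitutive chaperone hsc70 by 1.98 and hsp90aa1.2 by 1.96, and the endoplasmic reticulum chaperones hspa5 and hsp90b1 fell by 1.03 and 0.97. Of 33 Nrf2 targets and antioxidant enzymes tested, 17 were higher and 7 lower. The Nrf2 gene nfe2l2a itself had 43.7, 43.2, 46.8 and 48.5 FPKM in RFR 120 hpf libraries, against 12.7, 13.2, 16.6 and 10.8 FPKM in RFR 48 hpf libraries (log2 change 1.75 ± 0.12, adjusted p = 7.85e-07). Catalase, cat, rose by 1.68 and gpx1b by 1.83, whereas gpx7 fell by 2.86 and gpx8 by 1.18.

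Of 32 tested genes of p53 and its targets, 12 were higher and 8 lower, with a median of 0.07. The DNA damage recognition factor ddb2 had 53.1, 56.4, 55.7 and 54.6 FPKM in RFR 120 hpf libraries, against 2.28, 3.16, 2.18 and 2.86 FPKM in RFR 48 hpf libraries, and rose by 4.16 ± 0.11 (adjusted p = 1.02e-09). The growth regulator sesn1 rose by 2.39 and the cell cycle inhibitor cdkn1a by 1.98. The growth arrest gene gadd45gb.1, which is also a gene of neural differentiation, fell by 2.59 and the checkpoint kinase chek1 by 1.77. Of 6 tested germ line genes, 2 were higher, which was 0 under quantile normalization, and 2 were lower, and their levels were near the filter. The helicase ddx43 had 0.29 to 1.18 FPKM in RFR 120 hpf and 1.33 to 2.3 FPKM in RFR 48 hpf libraries, and nanos3, which protects germ cells, 0.18 to 0.42 FPKM in RFR 120 hpf and 0.56 to 1.22 FPKM in RFR 48 hpf libraries.

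Whether these stage changes were altered by the earlier exposure was asked with the interaction of exposure and stage, fitted over all 16 libraries and the same 21751 genes. No gene passed (0 genes at an adjusted p under 0.05 with limma). At an unadjusted p under 0.05, 1523 genes (7%) passed, of which 435 (2%) had a higher and 1088 (5%) a lower change in RFR than in control embryos. The median difference over all genes was -0.05. That median was -0.01 under quantile normalization, where 1388 genes passed unadjusted, and -0.01 under median-ratio scaling, where 1321 did. The split by direction was not counted under these scalings, so whether the lean to lower changes depends on scaling was not tested. In the fit of all 16 libraries without them, the stage change was called for 14557 genes (66.9%) in RFR embryos and for 14692 (67.5%) in controls. Across genes, which are not independent replicates, the correlation of the stage change in RFR embryos with that in controls was 0.975, and 90.7% of genes had the same sign. The median size of the difference was 0.148 on the log2 scale, and the median half-width of its 95% interval was 0.420. That interval is not adjusted for the 21751 genes tested. A call at an adjusted p under 0.05 therefore needed a difference well above 0.420 for a typical gene. A count of 0 does not show that the developments were the same.

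**Figure D5:**
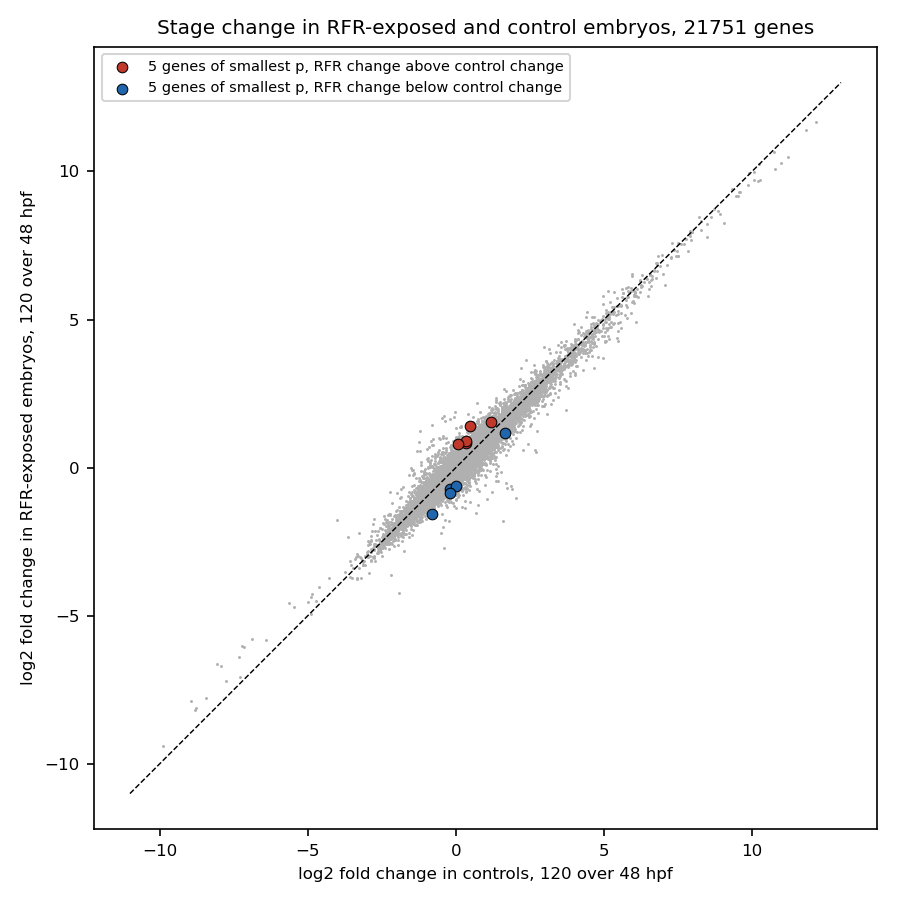
Log2 fold change from 48 to 120 hpf in RFR-exposed embryos (vertical axis) against that in control embryos (horizontal axis) for 21751 genes, with the line of equality dashed. The points lie along the line, and the 10 genes of smallest p for a difference, in red and blue, lie near the cloud's edge, each with an adjusted p of 0.501.

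The genes nearest to a difference were not called, and their adjusted p was 0.501 each. The growth arrest gene gadd45bb had 8.89 to 10.9 FPKM in RFR 120 hpf libraries, against 3.29 to 3.43 FPKM in RFR 48 hpf libraries. Its stage change was 1.41 in RFR embryos and 0.48 in controls, a difference of 0.93 ± 0.20. The other genes with a higher change in RFR embryos were si:ch73-141c7.1, annotated as a coenzyme Q-binding protein, at a difference of 0.51, rcl1, a factor of ribosomal RNA processing, at 0.54, aamp at 0.36 and zgc:136864 at 0.70. The phosphatase regulator ppp1r14ba had stage changes of -1.58 in RFR embryos and -0.82 in controls, a difference of -0.76 ± 0.15. The other 4 with a lower change in RFR embryos were the zinc finger factor tshz3b at -0.54, the proteoglycan cspg5a at -0.62, pdgfrl at -0.67 and itm2ca at -0.50.

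The genes of largest change had large changes in both developments. The log2 stage change was 11.67 in RFR embryos and 12.16 in controls for prss59.2. It was 9.16 in RFR embryos and 9.47 in controls for fabp6, and 9.70 in RFR embryos and 10.06 in controls for opn1sw1. For falling genes it was -9.38 in RFR embryos and -9.88 in controls for hbbe3, and -7.89 in RFR embryos and -8.94 in controls for he1a. The list medians were 8.45 in RFR embryos and 8.54 in controls for the exocrine pancreas, -2.26 in RFR embryos and -2.18 in controls for the cell cycle, and 4.16 in RFR embryos and 4.29 in controls for photoreceptors.

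Other lists lay further apart. Over the 36 lists the median difference, RFR minus control, ran from -0.43 for the actinodins to 0.24 for the erythroid genes, against -0.05 for all genes. The median stage change had opposite signs for sterol and lipid genes, at 0.25 in RFR embryos and -0.12 in controls. The sign in RFR embryos did not hold, with -0.03 without RFR 120 hpf replicate 3 and -0.04 under quantile normalization. For the actinodins the median stage change was -0.74 in RFR embryos and -0.31 in controls, and for the lens 0.68 in RFR embryos and 0.95 in controls. It was -0.33 in RFR embryos and -0.11 in controls for cartilage and bone, and 1.15 in RFR embryos and 1.37 in controls for neurons. For the ribosomal list it was -0.02 in RFR embryos and -0.21 in controls.

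Set beside the 7% of all genes, 19 of the 36 lists held a larger share at an unadjusted p under 0.05 for the difference. All 3 actinodins, 2 of 6 germ line genes (33.3%), 26 of the 83 ribosomal genes (31.3%) and 12 of 52 neuronal genes (23.1%) were among them. So were 5 of 22 pigment genes (22.7%), 8 of 41 cartilage and bone genes (19.5%) and 9 of 49 Hox genes (18.4%). The ribosomal number was 8 under quantile normalization, with a median difference of 0.07 in place of 0.19, and 27 under median-ratio scaling. Under quantile normalization the numbers were 2 for actinodins, 2 for germ line, 7 for neuronal, 5 for pigment, 6 for cartilage and bone and 8 for Hox genes. Under median-ratio scaling they were 2 for actinodins, 2 for germ line, 9 for neuronal, 4 for pigment, 3 for cartilage and bone and 7 for Hox genes. None of these genes passed the adjustment over all genes. Members of a list can vary together between libraries and are not independent replicates. The lists were also chosen with earlier results of these data known, so these shares are no test of a list.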

How the data were processed

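The authors deposited 1 table of FPKM values with 2 decimals for 32513 rows, per the file headers, of which 26164 have a gene symbol and 6349 are noncoding transcripts without one. The deposited summaries, per the file headers, give counts of clean reads and of genes detected, raw reads in M, and in percent the clean, rRNA, Q30 and mapped reads. Per the submitters' processing notes, the genome build was GRCz11 and the tools were Bowtie2, DESeq2 and HISAT2, with no roles. Not given in the sources used are the program behind the FPKM values, the strand and the treatment of reads shared by gene copies. Libraries were grouped by title.

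FPKM are not counts, so limma 3.58.1 in R 4.3.3 was fitted with a mean-variance trend on log2(FPKM + 0.5), with two-sided p-values and Benjamini-Hochberg adjustment over all 21751 genes. Fold changes are on this scale, which understates changes at low level. The development fit used the 8 RFR libraries. The interaction fit used all 16. Each was also run on simulated data with independent noise, in which far fewer genes changed than between the stages here. That run is no check of the counts given. Alternatives were other pseudocounts, filters and scalings, library weights, no trend, replicate 4 as a batch, a replicate block and each library left out. FPKM carry no counting interval, so the error that comes from depth is not known, and it weighs most on low values.

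The members and the 36 gene lists were chosen with earlier results of these data known. List entries matched by symbol (887), by name pattern (476), by current RefSeq symbol (41, assembly GRCz12tu, names only) or by synonym (5), and 16 did not match. The pattern for ribosomal proteins was corrected after the files were seen, since it had taken in S6 kinases. Named genes were the 10 largest rises and the 10 largest falls with a symbol and a group mean of at least 50 FPKM. In each list up to 3 rises and 2 falls of largest change with a mean of at least 5 FPKM were named, or the 2 smallest p where there was none. For the difference the rule named the 5 smallest p in each direction with a mean of at least 1 FPKM. The 7 genes with a symbol that were near 0 only at 120 hpf were named after their values were seen. Confidence intervals are 95%.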

Additional observations from a re-analysis of the deposited data

Results flagged for a closer look

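Within a group of 4 libraries, 26 values among the 370 groups looked at lay so far from the other 3 that the gap, as a share of the group's range, was above Dixon's 95% critical value. Chance flags about 1 in 20 groups.

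RFR 120 hpf replicate 4 was high for the hatching enzymes he1a (12.49 FPKM) and he1b (8.4 FPKM), for the cathepsin L genes LOC100536033 (0.61 FPKM) and si:dkey-239j18.3 (4.65 FPKM), and for the globin hbbe1.2 (347.46 FPKM). It also had 48.05 M raw reads, 0.24% rRNA and 21706 genes at 0.5 FPKM or more, the fewest of its group.

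RFR 120 hpf replicate 3 was high for msmo1 (87.52 FPKM) and hmgcra (28.99 FPKM) of sterol synthesis, mpeg1.2 of macrophages (27.11 FPKM), the steroid enzyme cyp17a1 (3.01 FPKM) and, by 1 value against 3 of 0, hbbe3 (0.48 FPKM). RFR 120 hpf replicate 2 was low for and3 (113.91 FPKM), mitfa (0.24 FPKM) and cox6a2 (22.0 FPKM), and high for MGC174155 (0.15 FPKM, the others at 0). RFR 120 hpf replicate 1 was low for ttr (38.78 FPKM).

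RFR 48 hpf replicate 1 was high for neurog1 (45.61 FPKM), opn1sw2 (0.49 FPKM) and lrata (8.58 FPKM), and low for thrb (9.17 FPKM) and cox6a2 (1.08 FPKM). RFR 48 hpf replicate 4 was high for cyba (3.41 FPKM), a subunit of the phagocyte oxidase, and had the fewest reads, with 40.18 M raw and 39603976 clean reads.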

How the results depend on the processing

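The direction of development held in every alternative for the genes named for development, of which 0 reversed. These genes were picked as called, with large changes in the same libraries, so a reversal was unlikely from the outset. Over all genes named, 3495 values under alternatives stayed on the same side of the threshold and 54 lost the call. These counts take in the genes named for the difference, which were not called and so could not lose a call or count as reversed. The count of called genes lay between 13259 and 14081 (7260 to 7735 higher, 5999 to 6488 lower; at least 2-fold, 3573 to 3965 higher and 1827 to 2043 lower) when 1 library was left out, and between 13004 and 15187 under the other settings. The number of genes called for the difference between RFR and control development was 0 to 1 when 1 library was left out and 0 under all other settings. The 1 gene, lower in RFR embryos, appeared without RFR 48 hpf replicate 1 and was the gamma crystallin crygm2d15, named after its values were seen (difference -1.18, adjusted p = 0.0114 with limma). The cause was not tested.

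Over all lists and alternatives, 59 list medians moved by at least the SD of that median between RFR 120 hpf libraries, and 661 moved less. The median change of a list flipped sign for germ line genes (0.37, and -0.13 under quantile normalization), ribosomal proteins (-0.02, and 0.03 without RFR 48 hpf replicate 1), sterol and lipid genes (0.25, and -0.03 without RFR 120 hpf replicate 3) and heat shock genes (-0.08, and 0.01 without RFR 120 hpf replicate 2). Deviations from the group mean in same-numbered libraries of RFR 120 hpf and RFR 48 hpf had correlations of 0.00412, 0.0213, -0.0683 and 0.20. Between RFR libraries of different number and stage they ran from -0.212 to 0.218, so these values do not show that the numbers pair the libraries. Between RFR and control libraries of the same number the correlations were 0.188, 0.0808, 0.267 and 0.305 at 120 hpf and -0.114, -0.0522, 0.164 and 0.345 at 48 hpf. Between RFR and control libraries of different number they ran from -0.303 to 0.296 at 120 hpf and from -0.263 to 0.353 at 48 hpf. Replicate 4 was positive in every same-number pairing, also between the stages in controls (0.189). With the replicate block, 13819 genes were called (7556 higher, 6263 lower), and 0 for the difference. Values near 0.5 FPKM are the least certain.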

Other observations

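Related genes could move in opposite directions between the stages in RFR embryos, in examples chosen after their values were seen. The proteolipid gene plp1b rose by 3.87 on the log2 scale while plp1a fell by 2.99. Among complexins cplx4a rose by 4.65 and cplx2 fell by 0.66, and among glutathione peroxidases gpx1b rose by 1.83 and gpx7 fell by 2.86. Among cytochromes of family 2, cyp2ad2 rose by 6.66 and cyp2aa3 fell by 2.70.

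The oxidase subunit gene cyba had 3.01, 4.3, 9.18 and 5.84 FPKM in RFR 120 hpf libraries, against 2.08, 2.19, 2.07 and 3.41 FPKM in RFR 48 hpf libraries. The groups overlapped, with RFR 120 hpf replicate 3 the highest, as it was for mpeg1.2, and the rise of 0.97 (adjusted p = 0.0113 with limma) was not called under quantile normalization.

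The gamma crystallin crygm2d15, also chosen after its values were seen, had 295 to 307 FPKM in RFR 120 hpf libraries and 67.4, 162, 145 and 185 FPKM in RFR 48 hpf libraries. Replicate 1 was the lowest at 48 hpf.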
